A study of Mus musculus with 16 samples.

Results

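Tmem236, Dbpht2, Sphkap, Pif1, Gdpd1, Fam8a1, Zdbf2 and Birc6 are 8 mouse genes of 55414 in the deposited tables. They were picked because their RNA stood higher at postnatal day 16 (P16) in Ythdc2 conditional knockout (cKO) testes than in both types of control testis. The genes were thus chosen by their P16 values in all libraries of that stage, and those values are given below as a description. That the genes pass a P16 threshold follows from the choice and is not a test of them. Their cKO mean over control mean at P16 ran from 1.20 for Birc6 to 6.41 for Tmem236 in the table with controls (n = 2 and 2) and from 1.49 to 7.96, for the same genes, in the table with Cre controls (n = 3 and 4). The P14 values took no part in the choice, and the tests were made on them. Tmem236 was too low to enter the P14 tests. In them 0 of the other genes passed the adjusted threshold, against either control type or both together. Of all genes tested, 0.00579% passed against the controls, 0% against the Cre controls and 0.00534% against both.

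YTHDC2 is an RNA helicase that binds N6-methyladenosine in RNA and is required for male germ cells to go through meiotic prophase. In the juvenile mouse testis the first germ cells enter meiosis in near synchrony, so a difference of a few days brings spermatocytes of later prophase into the tissue beside Sertoli, Leydig, peritubular, endothelial and immune cells. The 8 genes have no single pathway in common. SPHKAP anchors the cyclic AMP-dependent protein kinase (PKA) through its regulatory subunit, and PIF1 is a DNA helicase of telomeres, replication forks and G-quadruplex DNA. GDPD1 is a phosphodiesterase of lysophospholipid metabolism, FAM8A1 is a cofactor of the HRD1 complex, which removes misfolded proteins from the endoplasmic reticulum, and BIRC6 is a very large ubiquitin ligase of the inhibitor of apoptosis family. ZDBF2 carries a DBF-type zinc finger and is encoded by an imprinted gene. TMEM236 is a membrane protein of little known function, and Dbpht2 is annotated as a long intergenic RNA in GENCODE M21 and as protein coding in RefSeq.

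The 16 libraries were made from whole testes of mice labelled control, Cre control or Ythdc2 conditional knockout (cKO), at P14 or P16. There were 2 control, 2 Cre control and 3 cKO libraries at P14, and 2 control, 4 Cre control and 3 cKO libraries at P16. Tamoxifen, which activates an inducible Cre recombinase, had been given at 10 mg/ml on days 12 and 13 according to the labels. The labels give no strain, no allele of Ythdc2, no Cre driver and no further genotype for either control type, and they do not say whether the libraries came from separate animals, so p-values measure only the spread between these libraries. All control libraries and cKO libraries 1 and 2 of each stage were depleted of ribosomal RNA with Ribo-Zero components (the first kit), and all Cre control libraries and cKO library 3 of each stage with the NEBNext v2 kit (the second kit). The 8 first-kit libraries held 22220565 to 27531529 reads on genes and the 8 second-kit libraries 14494867 to 23200252. Against the Cre controls, cKO libraries 1 and 2 differ in kit as well as in genotype, and only cKO library 3 shares the kit of its controls. By the column names, the first-kit libraries were all of the same sequencing run and the second-kit libraries of other runs. Kit and run therefore cannot be told apart. At P16, cKO library 3 shared its run with 1 Cre control, and the other 3 were of a further run.

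Ythdc2 itself was lower in every cKO library than in every control of the same table. Its normalized count was 2027 and 2262 in the P14 controls against 658 and 753 in cKO libraries 1 and 2, and 2666 and 2609 in the P16 controls against 502 and 541. In the tables with Cre controls it ranged from 1352 to 2633 in the Cre controls, and it was 323 at P14 and 226 at P16 in the second-kit cKO libraries. All 12 germ cell markers reached at least 1 CPM, a count scaled to library size, in each group. So did all 6 peritubular, 10 macrophage and 6 endothelial markers, and no defining marker of the germ line was at 0. The Leydig marker Insl3 stayed under 1 CPM in every library, and the Sertoli marker Rhox5 in all P16 Cre controls. In whole testes, fewer cells of a type and less RNA per cell cannot be told apart.

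Promoter sequences were taken from RefSeq (build GRCm38.p6), which held 7 of the 8 genes; Pif1 has no entry. The sequences were read from that table alone, since the deposited tables were made on GRCm39 per the submitters' processing notes, and no coordinate was converted. The following 4 windows of 250 bases before an annotated start are shown because they run from poor to rich in CpG. They include Fam8a1 and Zdbf2, the pair whose RNA levels moved most alike across the libraries. The other Zdbf2 start, which had the most CpG of all windows, is not printed. Capitals mark CpG dinucleotides, and each window is written 5′ to 3′ on the strand of its gene: Tmem236 at chr2:14174274-14174523 (plus strand), Sphkap at chr1:83408201-83408450 (minus strand), Fam8a1 at chr13:46669227-46669476 (plus strand) and the first of the Zdbf2 starts at chr1:63200108-63200357 (plus strand).
Tmem236: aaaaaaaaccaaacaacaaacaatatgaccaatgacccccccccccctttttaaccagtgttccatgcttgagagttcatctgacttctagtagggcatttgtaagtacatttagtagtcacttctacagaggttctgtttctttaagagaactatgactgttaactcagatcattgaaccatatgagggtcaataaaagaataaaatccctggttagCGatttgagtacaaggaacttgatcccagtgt
Sphkap: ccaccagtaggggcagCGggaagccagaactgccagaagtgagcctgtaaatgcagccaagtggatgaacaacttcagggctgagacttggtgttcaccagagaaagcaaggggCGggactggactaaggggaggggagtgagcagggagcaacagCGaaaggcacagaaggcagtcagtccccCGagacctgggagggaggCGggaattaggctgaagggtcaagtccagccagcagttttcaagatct
Fam8a1: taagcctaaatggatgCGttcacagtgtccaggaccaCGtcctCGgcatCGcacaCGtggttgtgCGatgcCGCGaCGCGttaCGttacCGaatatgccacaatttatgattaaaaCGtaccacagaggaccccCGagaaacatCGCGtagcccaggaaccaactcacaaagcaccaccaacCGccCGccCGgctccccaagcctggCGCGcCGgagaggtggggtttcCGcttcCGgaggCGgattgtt
Zdbf2: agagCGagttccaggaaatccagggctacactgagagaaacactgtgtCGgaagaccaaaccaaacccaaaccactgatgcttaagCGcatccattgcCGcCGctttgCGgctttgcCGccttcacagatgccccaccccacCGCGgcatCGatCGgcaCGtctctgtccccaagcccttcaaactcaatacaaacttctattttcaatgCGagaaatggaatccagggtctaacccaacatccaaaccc

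These windows held 1 CpG in Tmem236, 5 in Sphkap, 25 in Fam8a1 and 13 in Zdbf2, where the median over 32841 annotated promoters of this length was 6. Of the genes not printed, Dbpht2 had 1 CpG, Gdpd1 and Birc6 had 18 each, and the other Zdbf2 start had 26. The windows before Tmem236 and Dbpht2 were thus poor in CpG and those of Gdpd1, Fam8a1, Zdbf2 and Birc6 rich, with Sphkap just below the median. In GENCODE M21 the Dbpht2 window lies wholly inside an exon of the longer Dbpht2 transcript, the Tmem236 window shares 1 base with the first Tmem236 exon, and the printed Zdbf2 window shares 45 bases with an exon of another gene, Platr12. The printed Sphkap and Fam8a1 windows share 0 exon bases with any gene. The bases just after the printed Fam8a1 and Zdbf2 starts were not found in a GENCODE M21 transcript of the same gene. Those after the other Zdbf2 start were. A search of both strands for short motifs found GGGCGG (the GC box) in 4 of the 7 genes and in 32.7% of all promoters, and AACTG (the core bound by MYB factors) in 3 and in 39.1%. CCAAT was found in 1 gene (33.9% of promoters), TATAAA in 0 (12.4%), TGACG in 2 (17.8%), TGACGTCA, which contains TGACG, in 1 (1.55%), and GCGCATGC in 1 (2.26%). All matches of Zdbf2 lay in the window of its other start, which is not printed. A match is a run of letters and not a shown binding site.

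**Figure D1:**
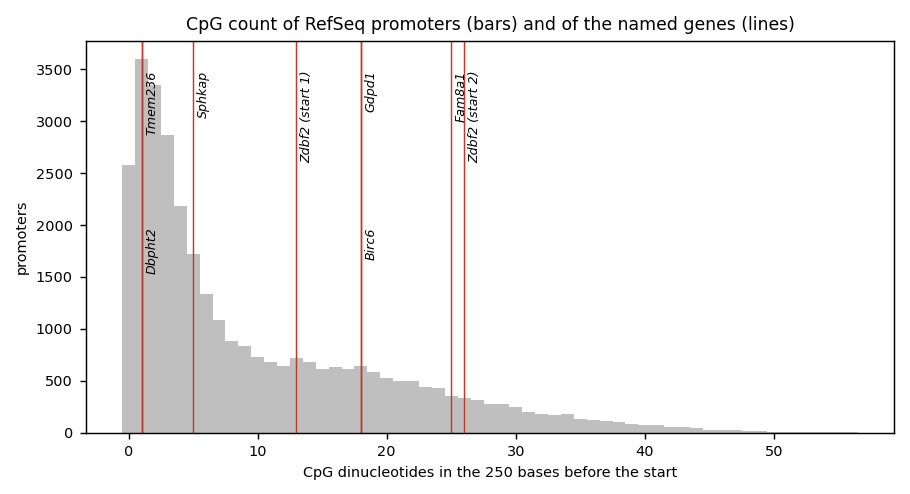
Number of CpG dinucleotides in the 250 bases before the annotated start (x axis, count) for all 32841 RefSeq mouse promoters (bars, y axis, number of promoters), with the windows of 7 genes marked. Tmem236 and Dbpht2 sit at 1 CpG, Sphkap at 5, and the other windows between 13 and 26, right of the median of 6.

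The values below are normalized counts as the authors deposited them, that is reads per gene divided by a factor for the library, and levels can be compared only within a table. Differences are on the scale of log2(value + 1), as cKO minus control, a scale on which changes of scarce genes come out too small. Among the 8 genes the level per kilobase of exon in the P16 controls ran from 2.58 for Tmem236 through 5.35 for Dbpht2, 12.5 for Pif1, 72.6 for Sphkap, 146 for Zdbf2, 257 for Birc6 and 352 for Gdpd1 to 420 for Fam8a1. The genes therefore range from scarcely detected to abundant, and the reads behind a value ranged from 1 to 64 for Tmem236 and from 1 to 131 for Dbpht2, but from 3576 to 8057 for Birc6.

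Sphkap, the PKA anchoring gene, stood well above the controls at P16 in all 3 cKO libraries. Its value was 699 and 696 in the P16 controls and 2402 and 2591 in cKO libraries 1 and 2. Among second-kit libraries it was 528, 291, 407 and 167 in the 4 Cre controls and 921 in cKO library 3. Every cKO library was above every control, but the Cre controls themselves spread over 3.14-fold, and cKO library 3 stood 0.80 above Cre control library 1, the only Cre control of its own sequencing run, and 1.52 above the mean of all 4. At P14 Sphkap was already present at lower levels, with 136 and 156 in the controls and 216 and 380 in cKO libraries 1 and 2. Both cKO libraries lay above both controls, and the difference was 0.97 (SE 0.26, n = 2 and 2), which did not pass the test (limma, adjusted p = 0.999677, unadjusted p = 0.00796). Within the second kit the P14 values overlapped: 55.3 and 62.8 in the Cre controls and 58.6 in cKO library 3.

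Sphkap was also the gene of the 8 that differed most between stages. From P14 to P16 its mean log2 value was 2.15 higher in the first-kit controls and 2.35 higher in the Cre controls, and 3.00 and 3.84 higher in the cKO libraries of the first and second kit. The stage difference in the controls was thus larger than the difference between genotypes at P16, which was 1.84 in the first kit. Dbpht2, the long intergenic RNA, was also higher at P16 in both control types, by 1.70 and 1.92. In the cKO libraries it was 2.30 and 3.59 higher, the latter from 1 read at P14 and 21 at P16. In the first kit the Dbpht2 stage difference in the controls was below its genotype difference at P16 of 2.01. In the second kit it was above the genotype difference, which was 1.39, as it was for Sphkap, with a genotype difference of 1.52. These stage differences rest on the P16 libraries that chose the genes and carry no test. In the second kit each stage had 1 cKO library. The P14 Cre controls shared their sequencing run with 1 P16 Cre control, and the other 3 P16 Cre controls were of another run. Stage and run were thus mixed in the Cre controls.

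Dbpht2 was scarce in every library. At P16 it was 26.0 and 31.2 in the controls against 127 and 110 in cKO libraries 1 and 2, and 13.8, 8.29, 9.58 and 8.75 in the Cre controls against 27.8 in cKO library 3. No cKO value overlapped a control value of its table, and cKO library 3 rested on 21 reads. Only 1 Cre control reached the minimum value of 10, so the gene entered the P16 fit against the Cre controls only through its cKO libraries. At P14 the controls had 8.61 and 6.5 and the cKO libraries 15.5 and 29.1. The groups did not overlap and the difference was 1.39 (SE 0.41), which did not pass the test (limma, adjusted p = 0.999677). Since both controls lay under the minimum value, the gene entered that test only through its cKO libraries and had to stand higher there. In the second kit the P14 values were 2.30 and 1.23 in the Cre controls and 1.20 in cKO library 3, with 1 read in that cKO library. Dbpht2 also differed most between kits, which were also sequenced in different runs. In cKO testes it was 1.77 higher in the first kit than in the second at P16, above 98.9% of 19200 genes. At P14 it was 3.06 higher.

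Tmem236 had the lowest level per kilobase and the largest ratio at P16. Its P16 value was 10.4 and 8.51 in the controls and 62.1 and 59.0 in cKO libraries 1 and 2. In the second kit it was 8.05, 1.04, 7.84 and 4.86 in the Cre controls and 30.4 in cKO library 3, from 1 to 9 reads in the controls and 23 in the cKO library. All 3 cKO libraries were clearly above all 6 controls at P16, with a first-kit difference of 2.56. In both P16 tables the gene passed the filter on low values only through its cKO libraries and had to stand higher there. At P14 its values were 4.31 and 5.42 in the controls and 4.85 and 17.7 in the cKO libraries. Only cKO library 2 stood above the controls, and the gene did not pass the filter on low values, so it has no entry in the P14 test. The second kit gave 3.46 and 4.92 in the P14 Cre controls and 4.78 in cKO library 3, values within the spread of the controls.

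The P14 cKO library 2 that carried the highest Sphkap, Dbpht2 and Tmem236 values also had the highest level of 8 of the 12 germ cell markers among the first-kit P14 libraries. The share of all genes that were highest in this library was not counted. Ldhc, a germ cell isoform of lactate dehydrogenase, was at 92.0 and 102 CPM in the controls, 80.5 in cKO library 1 and 172 in cKO library 2. Piwil1, a piRNA-binding protein of spermatocytes, was at 76.8 and 87.5, then 77.3 and 132, and Spata16 at 5.04 and 5.40, then 5.04 and 10.5. Of the other germ cell markers, Dmrt1 (190.9 CPM), Kit (139.9 CPM) and Zbtb16 (52.8 CPM) were at their lowest first-kit P14 level in the same library, so its germ cell markers did not all stand high. The part of these markers in the P14 differences was not tested. In cKO library 1 alone, the difference from the mean of the controls was 0.96 for Dbpht2, 0.56 for Sphkap and 0.0047 for Tmem236, smaller for each than the 1.83, 1.38 and 1.68 of cKO library 2.

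Pif1, the DNA helicase gene, did not share the stage pattern of Sphkap. Its P16 value was 54.0 and 55.8 in the controls and 235 and 207 in cKO libraries 1 and 2, and 28.7, 38.3, 34.8 and 25.3 in the Cre controls against 114 in cKO library 3. The P16 groups were far apart in both kits, with differences of 1.99 in the first kit and 1.83 for cKO library 3. At P14 the values were 68.9 and 68.3 in the controls and 83.5 and 60.9 in the cKO libraries, which lie on either side of the controls. The P14 difference was 0.056 (SE 0.22, limma, adjusted p = 0.999677). The P16 minus P14 difference of Pif1 was -0.41 in the first-kit controls and -0.14 in the Cre controls, while it was 1.49 and 1.97 in the cKO libraries of the first and second kit. In the second kit the P14 values were 36.9 and 29.5 in the Cre controls and 26.3 in cKO library 3, which was the lowest.

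Gdpd1, the lysophospholipid phosphodiesterase gene, was the only one of the 8 for which all 3 cKO libraries lay above all controls at P14. In the first kit it was 735 and 722 in the P14 controls and 867 and 820 in the cKO libraries. In the table with Cre controls it was 611 and 518 in the Cre controls and 702, 667 and 681 in cKO libraries 1 to 3. The difference was 0.21 (SE 0.071) in the first kit and 0.24 (SE 0.075) over both control types with kit as a covariate. Neither passed the test (limma, adjusted p = 0.999677 and 0.995323, unadjusted p = 0.0219 and 0.0124). At P16 the values were 848 and 796 in the controls against 1218 and 1361, and 500, 432, 454 and 517 in the Cre controls against 860 in cKO library 3. The P16 cKO libraries were above every control, by 0.65 in the first kit and 0.86 in the second.

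Fam8a1, the HRD1 cofactor gene, varied least among the P16 Cre controls. Its P16 value was 1618 and 1597 in the controls and 2594 and 2751 in cKO libraries 1 and 2. The 4 Cre controls stood at 1157, 1176, 1140 and 1150, a spread of 1.03-fold, and cKO library 3 at 1832. The distance of cKO library 3 from the mean of all Cre controls and from the Cre control of its own run was the same, at 0.66. At P14 the controls had 1537 and 1480 and the cKO libraries 1658 and 1724. The cKO libraries were above the controls by 0.16 (SE 0.058), which did not pass the test (limma, adjusted p = 0.999677, unadjusted p = 0.0279). In the second kit the P14 values were 1032 and 1135 in the Cre controls and 1113 in cKO library 3, within their spread.

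Zdbf2, the imprinted zinc finger gene, was 1917 and 1789 in the P16 controls and 2574 and 2929 in the cKO libraries of the first kit. The Cre controls had 1416, 1409, 1269 and 1415, and cKO library 3 had 2290. All cKO values were above all controls of their table, by 0.57 in the first kit and 0.73 in the second. At P14 the values were 1558 and 1798 in the controls and 1731 and 1884 in the cKO libraries, so the groups overlapped, with a difference of 0.11 (SE 0.085, limma, adjusted p = 0.999677). The P14 Cre controls had 1216 and 1406 and cKO library 3 had 1392.

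Birc6, the ubiquitin ligase gene, had the most reads and the smallest ratio of the 8 genes. Its P16 value was 6507 and 6738 in the controls and 7819 and 8060 in cKO libraries 1 and 2. In the second kit it was 4110, 4444, 4348 and 4399 in the Cre controls and 6287 in cKO library 3. The groups did not overlap in either kit, and the difference was 0.26 in the first kit, rank 3912 of 17986 genes, and 0.54 in the second. At P14 the values were 6453 and 7015 in the controls and 6894 and 6551 in the cKO libraries, which lay between the controls, with a difference of -0.0016 (SE 0.060, limma, adjusted p = 0.999677). The second kit gave 4818 and 4579 in the P14 Cre controls and 4636 in cKO library 3, also between its controls.

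**Figure D2:**
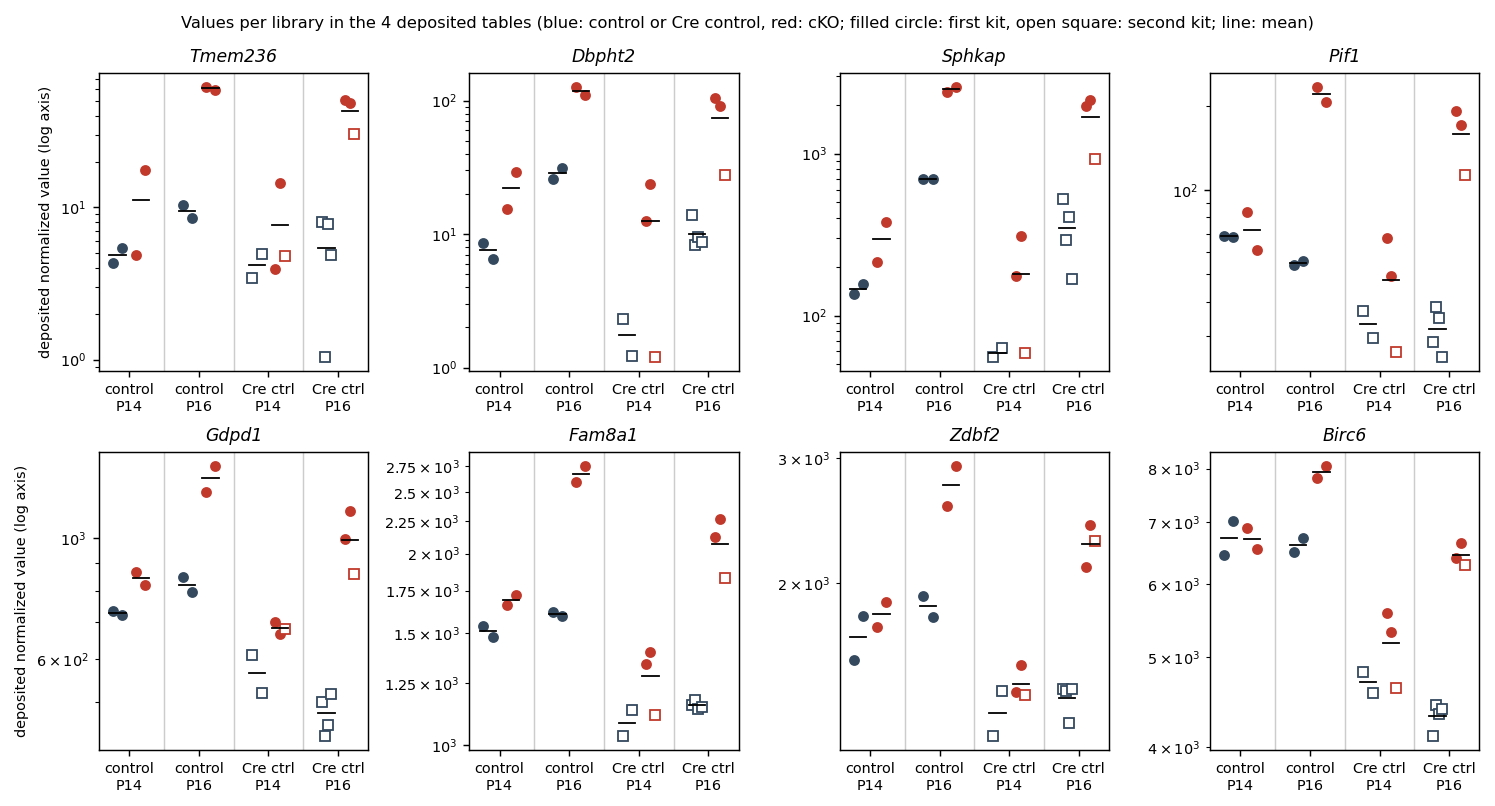
Deposited normalized counts of the 8 genes in every library, by table and group (points, 1 per library, log axis); blue marks controls, red cKO, filled circles the first kit, open squares the second kit and lines the means. At P16 the cKO libraries sit above the controls of their table for every gene, and at P14 this holds in both kits for Gdpd1 alone.

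Set against all genes, the P14 values gave few calls for any gene. In the first-kit P14 comparison 0.00579% of 17270 genes passed the adjusted threshold of 0.05 in either direction and 0% passed as higher in cKO, and of the 7 genes tested here 0 passed. At an unadjusted p under 0.05, Sphkap, Gdpd1 and Fam8a1 were higher in cKO, where 1.08% of all genes were. Both cKO libraries lay above both controls for the same 3 genes, where 15.1% of all genes did so. Dbpht2 met both criteria as well but is left out here, because it could enter the test only by being high in cKO. With edgeR and with DESeq2 on the recovered reads 0 of these genes passed in either P14 table. In the P14 comparison with Cre controls 0% of 18196 genes passed, 0 of the 7 tested here passed at an adjusted or unadjusted p under 0.05 (unadjusted, 2.06% of all genes were higher in cKO), and every cKO library lay above every Cre control for Gdpd1 alone of the 8, against 11.7% of all genes. These comparisons share cKO libraries 1 and 2. Over both control types with kit as a covariate 0.00534% of 18731 genes passed, 0 of these 7 among them, and Gdpd1 was the only one at an unadjusted p under 0.05, where 0.758% of all genes were higher in cKO at that level.

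The P16 comparisons chose the genes, so their calls there were fixed by the choice and are no test result. All 8 were called higher in cKO in the first kit, where 38.6% of 17986 genes passed in either direction and 18.6% as higher (19.9% as lower). Every cKO library lay above every control for all 8, as it did for 34.2% of all genes in the first kit and 13.2% against the Cre controls. The same held against the Cre controls, where 9.07% of 19200 genes passed and 4.3% as higher (4.77% as lower), and over both control types, where 14% of 19674 passed and 6.02% as higher (7.97% as lower). Against the Cre controls the count of 8 was 0 with the kit as a covariate. In that fit cKO library 3 is the only library that carries the difference within a kit. The count of 8 was also 0 when any library other than cKO library 3 was left out, and 1 when limma was run without its mean-variance trend. The cause of these lower counts was not tested. The second-kit cKO library stood above all 4 Cre controls for all 8 genes at P16 (24% of all genes did so) and above both at P14 for Gdpd1 alone (26.9% of all genes).

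**Figure D3:**
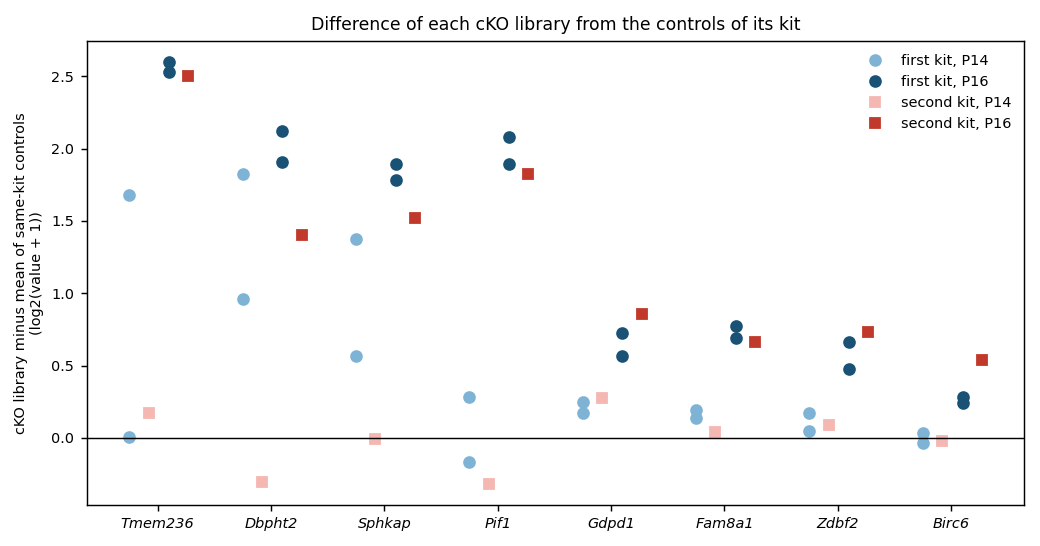
Difference of each cKO library from the mean of the controls of its own kit (y axis, log2(value + 1)) for the 8 genes (x axis); points are cKO libraries, with the kit and the stage given in the legend. At P16 every point is above 0, from 0.24 for Birc6 in cKO library 1 to 2.60 for Tmem236 in the same library, and at P14 the points lie from -0.32 for Pif1 in cKO library 3 to 1.83 for Dbpht2 in cKO library 2.

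The stage difference separated the 8 genes further. In the first-kit controls the P16 minus P14 difference was 0.074 for Gdpd1, -0.0071 for Fam8a1, 0.047 for Zdbf2 and -0.12 for Birc6, while the cKO libraries of that kit gave 0.49, 0.54, 0.48 and 0.12 for the same genes. In the Cre controls it was -0.32, 0.020, -0.00087 and -0.19, and in the second-kit cKO libraries 0.23, 0.61, 0.61 and 0.33. Tmem236 was 0.75 higher at P16 in the first-kit controls and 0.059 higher in the Cre controls, against 2.44 and 2.33 in the cKO libraries. Sphkap and Dbpht2 were thus higher at P16 in controls of both kits. In the other genes the stage difference in controls was at most 0.75. In the cKO libraries all 8 were higher at P16 than at P14 in both kits, with 1 cKO library per stage in the second kit.

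Cell type markers differed between the P16 groups as well. In the first kit both cKO libraries lay above both controls for 10 of 14 Sertoli, 5 of 10 Leydig, 9 of 10 macrophage, 6 of 6 endothelial and 2 of 6 peritubular markers, and below both for 8 of 12 germ cell markers. Over all genes tested 34.2% lay above both controls, on the deposited values rather than CPM, so the peritubular count is near that share. The share of all genes below both controls was not counted. The summed level ranged from 4628 to 4858 CPM in the controls and from 5439 to 5971 in the cKO libraries for Sertoli markers, from 141 to 144 and from 198 to 201 for macrophage markers, and from 3799 to 3846 and from 3165 to 3446 for germ cell markers. In the second kit the germ cell sum was 2439 CPM in cKO library 3 and 2501 to 3385 in the Cre controls, and the Sertoli sum was 7241 and 5732 to 7120. In the first-kit limma fit, 9 of 14 Sertoli, 8 of 10 macrophage and 5 of 9 Leydig markers were called higher. Of 6 endothelial markers 2 and of 6 peritubular markers 1 were called higher, and 7 of 12 germ cell markers lower. Over all genes 18.6% were called higher and 19.9% lower. In the limma fit against the Cre controls, 0 of 14 Sertoli and 0 of 12 germ cell markers were called. Of 10 macrophage markers 1 was called higher there, where 4.3% of all genes were called higher and 4.77% lower. Over both control types with kit as a covariate, 5 of 10 macrophage and 4 of 14 Sertoli markers were called higher. Of 12 germ cell markers 1 was called lower, and no marker of the other lists was called. Over all genes 6.02% were called higher and 7.97% lower in that fit. The part of these shifts in the differences of the 8 genes was not tested. Meioc, which encodes the meiotic partner of YTHDC2, was at 445 and 435 CPM in the P16 controls and 886 and 1017 in the cKO libraries of the first kit.

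The overlapping genes of GENCODE M21 that are in the tables carried few reads. Gm13320 lies on the opposite strand within Tmem236 without sharing exon bases and had 116 reads in all 16 libraries, of which the first kit gave 0 to 3 and the second kit 8 to 21 per library; at P16 it had 12 to 21 reads in the Cre controls and 8 in cKO library 3, the reverse order of Tmem236. The pseudogene Gm6374, opposite Sphkap, had 22 reads in all, and Gm37517, on the same strand, had 0. Gm26749, antisense to Birc6 with 611 shared exon bases, had 5 reads in all. A miRNA gene, Gm24513 (99 shared exon bases), and a small nuclear RNA gene, Gm23448 (0 shared exon bases), overlap Zdbf2 on the opposite strand and were not analysed here. Dbpht2, Pif1, Gdpd1 and Fam8a1 had no overlapping gene. Mrc1, a macrophage receptor gene, lies 7399 bases from Tmem236 on the same strand and was 1353 and 1497 in the P16 controls against 1787 and 1762 in the cKO libraries. Among the neighbours of Zdbf2, Adam23 was 149.6 and 150.3 in the P16 controls and 159 and 188.5 in the cKO libraries, and Gpr1 reached at most 1.89. The labels give a directional library kit, but the strand setting of the counting is not given in the sources used here.

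Gene lists built around each gene's known role were counted in the first-kit P16 fit, in which 18.6% of all genes were called higher and 19.9% lower. Each count includes the gene around which its list was built, and that gene was chosen on this contrast. The same lists are also given against the Cre controls, where 4.3% of genes were called higher and 4.77% lower and where cKO libraries 1 and 2 differ from the controls in kit as well. Of 19 PKA anchoring genes and PKA subunits tested, 3 were called higher (Sphkap, Prkar2b and Prkacb) and 2 lower (Akap3 and Akap8). Prkar2b, a regulatory subunit gene, rose by 0.26 (SE 0.072, limma, adjusted p = 0.0134). Akap3, an anchoring protein of the sperm tail, fell by 0.56 (SE 0.19, limma, adjusted p = 0.0333). Against the Cre controls the values were 0.35 and -0.20, and neither was called. The other regulatory subunit genes, Prkar1a, Prkar1b and Prkar2a, were at 0.041, 0.041 and 0.11 against the controls. They were at -0.65, -0.42 and 0.16 against the Cre controls, and none was called in either fit. Akap8 was -0.22 against the controls and 0.070 against the Cre controls. Besides Sphkap, Akap9 and Akap12 were called higher against the Cre controls. The median change over the list was 0.041, beside -0.00050 over all genes tested.

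Of 18 helicase genes of telomeres, G-quadruplexes and replication forks, 3 were called higher (Pif1, Helb and Wrn) and 10 lower, with a median of -0.25. Hells, a chromatin remodelling helicase, fell by 0.96 (SE 0.044, limma, adjusted p = 1.8e-08), and Brip1, the helicase partner of BRCA1, fell by 0.85 (SE 0.062, limma, adjusted p = 9.9e-07). Helb, a replication-associated DNA helicase, rose by 0.34 (SE 0.10, limma, adjusted p = 0.0187). Against the Cre controls at P16, 2 of the 18 were called higher (Pif1 and Wrn) and 0 lower (limma), with 9 at an unadjusted p under 0.05 in either direction. Hells was -0.078 and Brip1 0.021 in that fit.

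Around Gdpd1, 4 of 10 genes of glycerophosphodiester and N-acylethanolamine metabolism were called higher (Gdpd1, Abhd4, Gpcpd1 and Gde1) and 0 lower, with a median of 0.21. Abhd4 rose by 0.32 (SE 0.049, limma, adjusted p = 0.000285), but its value against the Cre controls was -0.021, where Gdpd1 and Gpcpd1 were the 2 called higher. Of 16 genes of the HRD1 complex and its partners, 4 were called higher, among them Fam8a1, Derl1 and Os9, and 3 lower (Derl3, Ube2g2 and Aup1), with a median of 0.029. Derl1 rose by 0.28 (SE 0.048, limma, adjusted p = 0.000618) and Derl3 fell by 0.26 (SE 0.068, limma, adjusted p = 0.0096), both encoding derlins of the retrotranslocation step. Derl1 was 0.22 and Derl3 -0.11 against the Cre controls, neither called, and Os9 had the opposite sign, at -0.24 beside 0.20 against the controls. There Fam8a1 was called higher and Aup1 lower.

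Of 14 genes of the inhibitor of apoptosis family and its partners, 4 were called higher (Birc3, Birc6, Birc2 and Xiap) and 4 lower, among them Uba6, Birc5 and Htra2, with a median of 0.098. Birc3 rose by 0.48 (SE 0.12, limma, adjusted p = 0.00587), more than Birc6 itself, and Uba6, which encodes the enzyme that charges BIRC6 with ubiquitin, fell by 0.31 (SE 0.042, limma, adjusted p = 9.7e-05). Uba6 had the opposite sign against the Cre controls, 0.32 (SE 0.082, limma, adjusted p = 0.0504), Birc3 was 0.35 and not called, and Xiap and Birc6 were the 2 called higher. Of 4 genes tested around Zdbf2, Zdbf2 itself and Fastkd2 were called higher and Dbf4 lower. Fastkd2 was 0.21 against the controls and 0.76 against the Cre controls, where it was not called, and Dbf4 was -0.20 and 0.13. A list of Tmem236 with its neighbour Mrc1 and the sphingosine kinase genes Sphk1 and Sphk2 had Tmem236 itself, Mrc1 and Sphk2 called higher. Sphk2 was 0.21 against the controls but -0.42 against the Cre controls, where it was not called. In the P16 fit over both control types, 8 helicases were called lower, and outside the helicases and the 8 genes the calls on these lists came to Abhd4 and Mrc1 as higher and Akap8 and Htra2 as lower. Wrn was the only helicase besides Pif1 called higher there. At P14, 0 genes of these lists were called in any comparison, with 0 or 1 gene per list at an unadjusted p under 0.05 (limma).

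Across the 16 libraries the 8 genes moved together to different degrees. Pearson's r on log2 CPM centred within each kit was highest for Fam8a1 and Zdbf2 at 0.956, and Fam8a1 also had r of 0.939 with Tmem236 and 0.932 with Pif1. Dbpht2 was closest to Tmem236 at 0.927 and to Sphkap at 0.921. Sphkap and Birc6 were least alike at 0.118. These values describe libraries that share genotype and stage groups, so they carry no p. The genes were chosen for high values in the same P16 cKO libraries, so a high r between them follows in part from the choice.

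**Figure D4:**
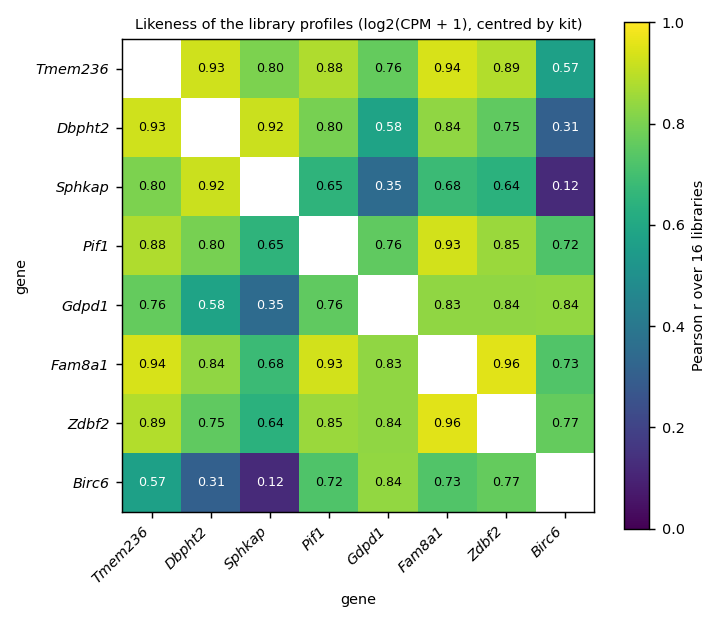
Pearson's r between each pair of the 8 genes over 16 libraries, on log2(CPM + 1) centred within each kit (colour scale, r). Fam8a1, Zdbf2, Tmem236 and Pif1 form a block of high values, from 0.848 to 0.956, while Birc6 and Sphkap have the lowest value at 0.118. High values follow in part from the choice of the genes by their P16 values.

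Among 16115 genes with a mean value of at least 10 in every table, the 2 most like each gene were found by the same measure. For Sphkap these were Zpbp (r = 0.988), which encodes a zona pellucida-binding protein of the acrosome, and Nkx6-2 (0.987), and 296 genes exceeded 0.9. For Dbpht2 they were Ppa2 (0.975) and Znrf2 (0.966). Zbtb10 and Spag9 were nearest to both Tmem236 (0.959 and 0.958) and Fam8a1 (0.967 and 0.982), and Zbtb10 (0.953) came after Fam8a1 for Zdbf2. Cdk19 (0.945) and Cpq (0.935) were nearest to Pif1, Wapl (0.951), a cohesin release factor, and Rdx (0.946) to Gdpd1, and Map3k2 (0.946) and Plk1 (0.939) to Birc6. For these other genes between 20 and 70 genes exceeded 0.9, so Sphkap had by far the most genes of like pattern.

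The transcripts of the 8 genes differed widely in size. The longest GENCODE M21 transcript ran from 2336 bases for Gdpd1 to 15768 for Birc6, and 7 of the 8 were longer than the median of 3047 over 17911 genes. The letters GGACT, a frequent context of N6-methyladenosine, occurred 2 to 12 times per transcript, or 0.374 times per kilobase in Dbpht2 to 1.03 in Pif1. The median over all genes was 1.02 per kilobase and 89.0% of genes had at least 1 occurrence, so Pif1 was close to the median and the other 7 below it. Sequence letters do not show that a transcript is methylated or bound.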

How the data were processed

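RNA of 16 mouse testis libraries was sequenced by the authors, who deposited 4 tables, each of 1 stage and 1 control type. In the deposited tables a value is a scaled signal, the count of a gene over the size factor of its library. Of the columns, 20 matched a sample by their names and 0 did not. In every column 100% of the values came out as whole multiples of 1 read (within 0.01 reads), so whole reads were recovered. The STAR summary lines were left out of library sizes and tests. The submitters' processing notes name Trim Galore, STAR, HTSeq, DESeq2 and GRCm39 (mm39), with no version; the strand setting is not given in the sources used here. Libraries held 14494867 to 27531529 reads on genes, and cKO libraries 1 and 2 of each stage enter both tables of that stage.

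Each table was fitted on its own with limma 3.58.1 (eBayes with trend, R 4.3.3) on log2(deposited value + 1). Genes entered where 2 or more libraries reached a value of 10, with Benjamini-Hochberg adjustment over all genes tested and a threshold of 0.05. A further fit over both control types used the recovered reads scaled by TMM, with the kit as a covariate. Alternatives were edgeR 4.0.16 and DESeq2 1.42.0 on the recovered reads, other pseudocounts (0.1, 10), no filter, a higher minimum (50), no trend, TMM scaling, a replicate block, a kit covariate and omission of each library. The fit was tested on simulated data. The 8 genes and the gene lists were chosen with earlier results of these data known. Named are the 8 genes, Ythdc2, overlapping and neighbouring genes, the 2 genes most like each by Pearson's r, and the called genes of each list with the largest change in each direction; other called list genes, Meioc and the germ cell markers of cKO library 2 were named after their values were seen. GENCODE M21 gave names to 52081 of 55414 genes, and with RefSeq promoters (GRCm38.p6) gave lengths, overlaps and sequences on another build than the tables. Some called genes of the lists are not reported here by name.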

Additional observations from a re-analysis of the deposited data

Results flagged for a closer look

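Zdbf2 was at 1269 in Cre control library 3 at P16, apart from the other 3 Cre controls, which stood at 1409 to 1416. The gap to the nearest library was 0.955 of the range of the group, above Dixon's critical value of 0.829 for 4 samples. This holds for the deposited values. With TMM scaling within the kit the library was at 1134 and the others at 1241, 1254 and 1293, so the gap was a smaller part of the range. Dixon's ratio was not computed on that scale. Chance sets apart about 1 in 20 such groups, and 9 genes were examined in the 4 Cre controls at P16.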

How the results depend on the processing

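In the first kit and over both control types, 0 of the 8 genes were called at P14 under every alternative run, and at P16, where the calls follow from the choice of the genes, 6 to 8 in the first kit and 7 or 8 over both control types. Against the Cre controls the counts moved. At P14, 3 genes were called with the replicate block and when cKO library 3 was left out (0 to 3 over the fits that leave out a library), a fit in which kit and genotype cannot be told apart. At P16 the count of 8 became 1 without the trend, 0 with the replicate block and 0 with the kit as a covariate, and 0 to 8 when a library was left out, with 8 only without cKO library 3. The cause was not tested. Direction at P14 turned for Birc6 against the controls with TMM scaling (0.0097), and against the Cre controls with the kit as a covariate for Dbpht2 (-0.31), Sphkap (-0.0086), Pif1 (-0.32) and Birc6 (-0.019). Leaving out single libraries gave -0.17 to 0.28 for Pif1 and -0.062 to 0.059 for Birc6 against the controls, and -0.20 to 0.058 and -0.017 to 0.057 over both control types. Where an arm was left with 1 library, it was assumed to vary like the other.

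Over all genes, the first-kit P16 calls of 3352 higher and 3587 lower became 741 and 1065 without the trend, and 2322 and 2269 without control library 1. Over both control types at P16, 1185 and 1569 became 431 and 683 without the trend and as few as 261 and 451 without cKO library 1. Against the Cre controls at P16, 825 and 916 became 1283 and 1994 with a pseudocount of 10, 420 and 497 with no filter, 18 and 14 without the trend, 2131 and 2057 with DESeq2, 0 and 0 with the replicate block, 0 and 1 with the kit as a covariate, and 3843 and 5584 without cKO library 3. At P14 against the Cre controls, 0 and 0 became 2876 and 4090 with the replicate block and 2435 and 3821 without cKO library 3; the other P14 settings called 0 to 11 genes in all. No source ties same-numbered libraries together, and the block changed no other count of the 8 genes. Few reads limit Tmem236 and Dbpht2 most.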
